A study of Rattus norvegicus with 6 samples.

Results

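The genes described here belong to Hedgehog and parathyroid hormone (PTH) receptor signalling. The pathway genes set out were 9, Ihh, Ptch1, Smo, Gli1, Gli2, Gli3, Hhip, Pthlh and Pth1r. A gene was taken where a row of the value table carried its symbol alone in the array annotation. That held for 6 of the 9, Ihh, Smo, Gli1, Gli2, Gli3 and Pth1r, each with 1 row, among 14506 genes with such a row. Ptch1, Hhip and Pthlh had no such row and were not analysed here. Cells were freed from long bones of 2 to 5 day old Sprague Dawley rats and left to adhere to wells coated with osteopontin (OPN) from bovine milk or with prothrombin (PT) from mouse. OPN is an acidic phosphoprotein of bone matrix, and PT is cleaved to thrombin, the protease that clots blood. RNA of the adherent cells was hybridised to 3 arrays for OPN-adherent cells (replicates 2, 3 and 4) and 3 for PT-adherent cells (replicates 1, 2 and 4). The labels give no genotype, sex or further treatment, and do not say if each array stands for its own animals or cell isolation. The p-values therefore speak only of the variation among these 6 arrays, which may be technical.

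Hedgehog proteins are secreted signals. In growing long bones Indian hedgehog comes from prehypertrophic chondrocytes and acts on neighbouring chondrocytes and on the perichondrium, where it is needed for osteoblasts to form. Its receptor Patched holds Smoothened (Smo) inactive until the ligand binds, and active Smo, in the primary cilium, changes the balance of activating and repressing forms of the Gli transcription factors. PTH and PTH-related protein share the receptor PTH1R, a G protein-coupled receptor found on osteoblast-lineage cells and on chondrocytes, and in the growth plate PTH-related protein and Indian hedgehog regulate each other.

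The study was about multinucleated cells positive for tartrate-resistant acid phosphatase, but the RNA came from all cells that stuck to a coating. In such bulk RNA, fewer cells of a type and less RNA per cell cannot be told apart. Array medians lay between 207.8 and 231.4 units of PLIER signal, and log2 values correlated at 0.988 to 0.992 within a coating and at 0.974 to 0.979 across coatings. Signals are linear, the number of arrays limits the precision, and detection calls were not used. A level cannot be read across genes, since each row has its own probes. Differences are of log2(signal + 16), OPN minus PT, in which 16 is a fixed offset that damps dim rows. A row is called where limma's two-sided test gave an adjusted p below 0.05 over all 29215 rows.

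Of the 6 measured genes, 3 rose on OPN (Pth1r, Gli3 and Smo) and 0 fell, and Ihh, Gli1 and Gli2 were not called. At an unadjusted p under 0.05 the counts in limma's test were also 3 and 0. Over all rows, 5.05% were called higher and 0.77% lower on OPN. Among genes with a row of their own the shares were 7.62% and 1.12%. Of all called rows 86.8% were higher on OPN, against 68.1% once array medians were made equal and 64.6% after quantile normalisation. The arrays of the coatings did not overlap for the 3 genes that rose and overlapped for the other 3, while 23.7% of all rows did not overlap in one direction or the other. The median difference of the 6 genes was 0.23, against 0.028 over all rows and 0.039 over all genes with a row of their own. Left without the replicate 2 array of PT, the test called only Pth1r. It called 2 of the 6 when any other array was left out.

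RefSeq promoters, from 250 bases before to 50 after the start of each gene (build GRCr8), were at hand for 4 of the 6 measured genes, Smo, Gli2, Gli3 and Pth1r. Those of the 3 genes that rose are shown because Gli proteins bind a known DNA motif, GACCACCCA, and PTH receptor signals reach the genome in part through the cAMP response element TGACGTCA. Both were searched on both strands, with CCACCC, which lies within the Gli motif. Capitals mark CCACCC or its reverse complement, and each line runs 5′ to 3′ along the gene.
Pth1r, chr8:119595522-119595821, minus strand: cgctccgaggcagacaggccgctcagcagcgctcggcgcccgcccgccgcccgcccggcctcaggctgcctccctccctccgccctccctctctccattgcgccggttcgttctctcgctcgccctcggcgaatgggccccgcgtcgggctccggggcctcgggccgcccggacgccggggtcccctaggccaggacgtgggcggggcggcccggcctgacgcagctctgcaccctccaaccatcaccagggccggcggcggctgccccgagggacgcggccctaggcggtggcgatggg
Smo, chr4:59310834-59311133, plus strand: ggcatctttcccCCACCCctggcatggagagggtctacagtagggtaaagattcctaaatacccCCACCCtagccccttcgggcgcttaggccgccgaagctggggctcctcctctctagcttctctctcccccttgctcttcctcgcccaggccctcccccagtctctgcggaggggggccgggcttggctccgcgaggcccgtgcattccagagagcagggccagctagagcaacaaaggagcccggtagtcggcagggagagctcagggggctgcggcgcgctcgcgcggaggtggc
Gli3, chr17:54405149-54405448, minus strand: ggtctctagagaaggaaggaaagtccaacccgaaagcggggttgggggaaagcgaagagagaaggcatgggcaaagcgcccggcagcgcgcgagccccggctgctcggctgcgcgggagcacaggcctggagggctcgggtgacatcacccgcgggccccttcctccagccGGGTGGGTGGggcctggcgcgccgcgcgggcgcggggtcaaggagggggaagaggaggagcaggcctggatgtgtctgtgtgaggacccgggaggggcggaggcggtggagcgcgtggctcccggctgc

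None of these 3 windows holds an exact copy of the full Gli motif or of the cAMP response element. These exact strings occur in 0.385% and 1.83% of the 33469 promoters of the table. Variant sites, and partial sites other than CCACCC, were not searched for. Pth1r holds no CCACCC, while Smo holds 2 and Gli3 holds 2 that overlap, in a table where 29.4% of promoters hold at least 1. Gli2, which was not called, holds 1 CCACCC and neither longer motif. The G and C content was 78.7% for Pth1r, 67% for Smo, 72% for Gli3 and 68.3% for Gli2. As an example of the full motif, the window of Ptch1, a textbook Hedgehog target that was not analysed here, holds it once on the minus strand, shown in capitals with 20 bases on each side.
Ptch1, chr17:1555379-1555427, plus strand: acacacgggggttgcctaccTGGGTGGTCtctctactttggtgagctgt

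Pth1r, the receptor for PTH and PTH-related protein, showed the widest gap of the 6 genes. Its signal was 810, 870 and 728 units on OPN replicates 2, 3 and 4, against 146, 137 and 109 units on PT replicates 1, 2 and 4. Every OPN array lay above every PT array, and the lowest OPN value exceeded the highest PT value by 582 units. Pth1r averaged 803 ± 71.3 units in OPN-adherent and 131 ± 19.6 units in PT-adherent cells (SD, n = 3 each). The log2 difference was 2.49 (SE 0.11), a 5.61-fold difference with a 95% interval from 4.69 to 6.70 and an adjusted p of 3.99e-06. Leaving out any 1 array kept it between 2.37 and 2.56.

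Markers of bone-forming and stromal cells moved with Pth1r, and their part in its rise was not tested. With all 6 arrays, the 13 measured osteoblast markers were all called higher, with a summed signal between 57311 and 63964 units on the OPN arrays and between 11310 and 12292 on the PT arrays. The osteoblast count was 10 without OPN replicate 3 or PT replicate 2 and 11 without any other single array. It was 12 with equal array medians or an intensity trend. With dim rows left out, Mepe and Omd were not fitted, and the other 11 were all called. The 10 measured stromal markers were also all called higher with all 6 arrays, with sums between 7079 and 7857 units on OPN and between 1678 and 1851 on PT. Their count was 9 without OPN replicate 2, 3 or 4 or PT replicate 2. With dim rows left out, Postn and Twist1 were not fitted, and the other 8 were all called. Among the markers of both lists were Sparc (log2 difference 3.13) and Col1a1 (1.87), matrix proteins of osteoblasts, and the proteoglycan gene Bgn (3.18). None of the markers in either list was at 0 on any array.

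Ihh, the only Hedgehog ligand among the 6, did not differ beyond the spread between arrays. Its signal was 1448, 1473 and 1426 units on OPN replicates 2, 3 and 4 and 1467, 1566 and 1458 units on PT replicates 1, 2 and 4. The groups overlapped, and the highest value, of PT replicate 2, stood somewhat apart from the other 5. The log2 difference was -0.046 (SE 0.067, adjusted p = 0.807), a fold difference of 0.969 with a 95% interval from 0.872 to 1.08.

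Markers of chondrocytes, the cells known to make Ihh in growing bone, were mixed. Of 16 measured, 3 rose (Col11a1 3.29, Col11a2 1.42 and Col2a1 0.41) and 1 fell (Sox6 -0.36), with a median of 0.075. The count higher was 2 without OPN replicate 2 or 3 or PT replicate 2 or 4, and the count lower was 0 without OPN replicate 2. Their summed signal lay between 6802 and 7284 units on OPN and between 4334 and 4733 on PT. Most of that gap comes from Col11a1 alone, which averaged 2109 units on OPN and 201 on PT. Col10a1, the collagen gene that defines hypertrophic chondrocytes, had 162 units on OPN and 147 on PT on average and was not called (log2 difference 0.13). The 5 genes that rose among 7 measured hypertrophic markers, of which Ihh is one, were Mmp13, Alpl, Spp1, Panx3 and Ibsp, all of which osteoblasts also make.

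Smo, the membrane protein that passes the Hedgehog signal on, was modestly higher on OPN. Its signal was 232, 263 and 241 units on OPN replicates 2, 3 and 4, against 201, 179 and 188 units on PT replicates 1, 2 and 4. The groups did not overlap, with 31.5 units between the lowest OPN and the highest PT value. The log2 difference was 0.35 (SE 0.078, adjusted p = 0.0353), a 1.27-fold difference with a 95% interval from 1.13 to 1.44. The call was lost without OPN replicate 2, 3 or 4 (adjusted p = 0.0714, 0.152 and 0.0908) and without PT replicate 2 or 4 (0.114 and 0.0885), and it was also lost with equal array medians (0.0598).

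Of the Gli factors, through which Hedgehog signals reach the genome, Gli3 alone passed the test. Gli3, which is known chiefly as the repressor of the pathway, had 118, 168 and 107 units on OPN replicates 2, 3 and 4, against 58.2, 71.6 and 76.9 units on PT replicates 1, 2 and 4. The groups were 30.2 units apart at their nearest, and OPN replicate 3 stood well above the other OPN arrays. Gli3 averaged 131 ± 32.2 units in OPN-adherent and 68.9 ± 9.64 units in PT-adherent cells (SD, n = 3 each). The log2 difference was 0.77 (SE 0.15, adjusted p = 0.0193), a 1.71-fold difference with a 95% interval from 1.35 to 2.18. Without OPN replicate 3 it was 0.60 and still called (adjusted p = 0.0315). The call was lost without PT replicate 1 (0.68, adjusted p = 0.0658) or PT replicate 2 (0.80, adjusted p = 0.0507).

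Gli1 and Gli2 were not called. Gli1, a transcriptional target of the pathway that is widely used as its readout, had 214, 234 and 196 units on OPN replicates 2, 3 and 4 and 215, 185 and 192 units on PT replicates 1, 2 and 4. The ranges overlapped, and the log2 difference was 0.11 (SE 0.090, adjusted p = 0.604), with a fold interval from 0.939 to 1.25. Gli2, the main activator at the start of the response, had 157, 128 and 141 units on OPN and 122, 134 and 137 units on PT in the same order of arrays. OPN replicate 3 lay within the PT range, and the difference was 0.10 (SE 0.087, adjusted p = 0.640), with a fold interval from 0.935 to 1.23. How far the signals of Gli1 and Gli2 lie above background is not known.

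**Figure D1:**
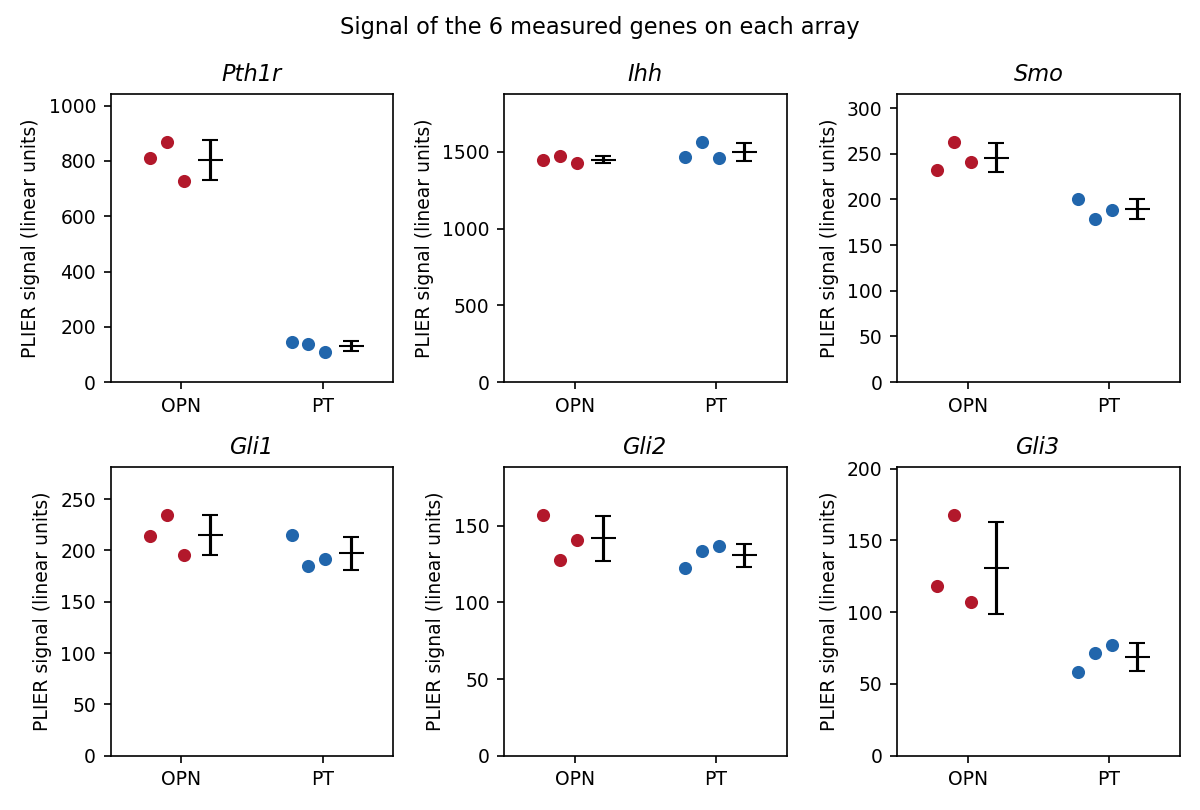
PLIER signal (linear units, axes from 0) of the 6 measured genes on each of the 3 OPN and 3 PT arrays, as points, with the mean and SD of each coating as bars beside them. Pth1r lies between 728 and 870 units on OPN and between 109 and 146 on PT, Smo and Gli3 separate by smaller gaps, and Ihh, Gli1 and Gli2 overlap.

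Whether the genes moved by unequal amounts was examined by the log2 ratio of 2 genes within each array. These 5 ratios were chosen after the values were seen. Gli3 over Gli2 was 0.67 higher on OPN, Gli3 over Gli1 0.66 higher, Smo over Gli1 0.24 higher and Pth1r over Ihh 2.53 higher. For these 4 ratios the OPN and PT arrays did not overlap, and each exact two-sided permutation p was 0.1, the smallest that 3 against 3 arrays allow (0.125 after Benjamini-Hochberg adjustment over 5). Gli2 over Gli1 differed by -0.012 (exact p = 0.9). With this number of arrays no such ratio could pass an adjusted p of 0.05. Each of the 4 sets a called gene over an uncalled one. Their separation followed largely from that choice and adds no support of its own.

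**Figure D2:**
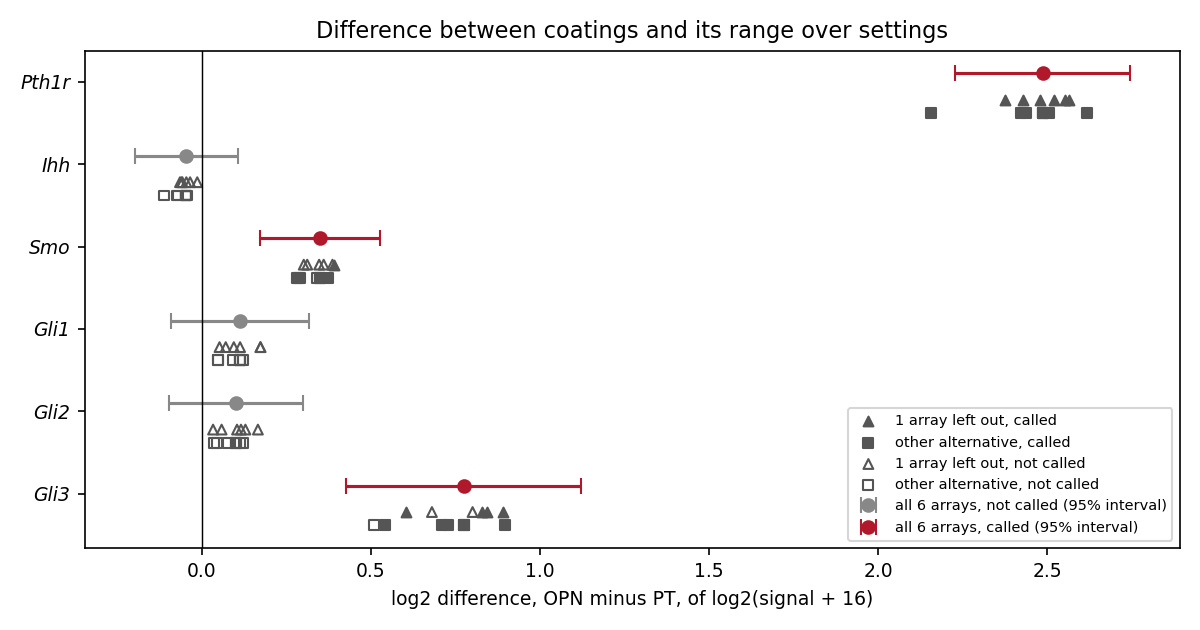
Log2 difference, OPN minus PT, of log2(signal + 16) for each gene, with the 95% interval from all 6 arrays (circles), the values with 1 array left out (triangles) and those of the other alternatives (squares), where filled symbols mark called values. Pth1r stays between 2.16 and 2.62 and called throughout, while Smo and Gli3 keep their direction but not every call, and Ihh, Gli1 and Gli2 are called in none.

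The other genes of both pathways were set out in 8 lists by role. They comprised 108 measured genes of 131 listed, of which 21 rose on OPN and 1 fell, or 19.4% and 0.926%. Over all genes with a row of their own, 7.62% rose and 1.12% fell. The count of genes that rose was 12 without OPN replicate 2 and 13 without OPN replicate 3. The gene that fell lost its call without any 1 array other than PT replicate 1.

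Upstream of Smo no measured gene passed the test. Of the genes for ligands and their release, 0 of 5 measured were called in either direction by limma, with 1 higher and 0 lower at an unadjusted p under 0.05. Shh, the ligand of limb patterning, had 240 units on OPN and 244 on PT (log2 difference -0.027), and Dhh, the ligand of testis and nerve sheath, 192 on OPN and 195 on PT (-0.030). Disp1, which frees lipid-bearing ligand from the cell that makes it, had 181 units on OPN and 147 on PT (0.28, adjusted p = 0.163). Of the 4 measured co-receptors and other binding proteins, 0 were called and 0 had an unadjusted p under 0.05. They were Cdon (0.10), a co-receptor that helps Patched bind the ligand, the glypican genes Gpc3 (0.084) and Gpc5 (-0.036), and the large endocytic receptor gene Lrp2 (0.0087).

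Among the 13 measured genes of the Hedgehog transduction list, which leaves out Smo and the Gli genes, 1 was called lower and 0 higher, at a median of 0.037 (unadjusted, 2 lower and 0 higher). The gene that fell was Btrc, which encodes the part of a ubiquitin ligase that directs Gli3 to its processing and also acts on other proteins. Btrc had 847, 886 and 855 units on OPN replicates 2, 3 and 4, against 1029, 1102 and 1141 units on PT replicates 1, 2 and 4 (log2 difference -0.33, SE 0.070, adjusted p = 0.0281). Its groups did not overlap, yet its adjusted p lay between 0.0827 and 0.125 without OPN replicate 2, 3 or 4 or PT replicate 2 or 4. With a block for replicate number its adjusted p was 0.175. Sufu, the inhibitor that holds Gli proteins in the cytoplasm, had 204 units on both coatings (0.0054, adjusted p = 0.988).

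Of 16 measured genes of the primary cilium, the organelle in which Smo acts, 1 was called higher and 0 lower, at a median of 0.0078 (unadjusted, 2 each way). The share called higher, 6.25%, was near the 7.62% of all genes with a row of their own. Ift20, a transport protein of the cilium and the Golgi apparatus, had 694, 705 and 713 units on OPN replicates 2, 3 and 4, against 452, 522 and 565 units on PT replicates 1, 2 and 4 (log2 difference 0.45, adjusted p = 0.0197). The OPN arrays were tight and all lay above the PT arrays. The call was lost without OPN replicate 2, 3 or 4 or PT replicate 2 (adjusted p = 0.0675, 0.0823, 0.0723 and 0.0521). It was also lost with equal array medians (0.0576) and with a block for replicate number (0.212). Ift80 (-0.24, adjusted p = 0.0938) and Tmem67 (0.29, adjusted p = 0.0750), for a transport protein and a protein of the cilium's base, did not pass, nor did Evc2 (-0.19), whose product carries the Smo signal within the cilium. Each was called under some alternatives. Ift80 was called lower in 6 of 15, with equal array medians, quantile normalisation, dim rows left out, an intensity trend, single-symbol genes only and the mean over a gene's rows (adjusted p between 0.0135 and 0.0388). Tmem67 was called higher in 2 of 14, with single-symbol genes only and the mean over a gene's rows (0.0245 and 0.0243), and Evc2 lower in 1 of 15, quantile normalisation (0.0367).

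Genes known as Hedgehog targets in some tissue numbered 6 called higher among 12 measured, with 0 lower and a median of 0.19. At an unadjusted p under 0.05 limma's counts were also 6 and 0. All 6 have other known regulators. Angpt1, the ligand of the endothelial receptor Tie2, had 382, 398 and 351 units on OPN replicates 2, 3 and 4, against 115, 125 and 135 units on PT replicates 1, 2 and 4. That 2.79-fold difference (log2 1.48, adjusted p = 1.30e-05) was the widest of the list. The bone morphogenetic protein gene Bmp2 (0.92, adjusted p = 0.00265), the transcription factor gene Snai1 (0.73, adjusted p = 0.000319) and the vessel growth factor gene Vegfa (0.42, adjusted p = 0.00820) were the next lowest in p. Wnt5a (0.61) and Ccnd1 (0.31), for a Wnt ligand and for cyclin D1, also rose and were named after their values were seen. The count was 3 without OPN replicate 2, where Vegfa, Wnt5a and Ccnd1 lost their calls (adjusted p = 0.0505, 0.0868 and 0.188). It was also 3 with a block for replicate number, where the same genes lost theirs (0.098, 0.0649 and 0.37). With dim rows left out it was 3, and Bmp2, Wnt5a and Snai1 were not fitted. Wnt5a was also lost without OPN replicate 3 or 4 (0.0876 and 0.0792), and Ccnd1 without any 1 array. The other 6 measured targets, Ntn1 (-0.055), Bcl2 (0.043), Bmp4 (0.047), Osr2 (0.063), Mycn (0.073) and Ccnd2 (0.081), were not called. The osteoblast and stromal markers rose on the same arrays, as did 8 of 10 measured endothelial markers, whose sums were 2938 to 3112 units on OPN and 1821 to 1969 on PT. Their part in the rise of these 6 genes was not tested.

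On the PTH side, the ligand genes and the partners of the receptor showed 1 called gene. Of the 11 with a row, 1 was called higher and 0 lower, at a median of 0.067 (unadjusted, 3 higher and 0 lower). That share of 9.09% was near the 7.62% of all genes with a row of their own. Pth itself, the hormone gene of the parathyroid gland, had 162, 156 and 166 units on OPN replicates 2, 3 and 4 and 164, 157 and 160 units on PT replicates 1, 2 and 4, and the groups overlapped (0.0028, adjusted p = 0.992). Pth2r, the related receptor gene, was not called either (0.036, adjusted p = 0.901). Ramp2, a membrane partner of several receptors of this class that endothelial cells use with the adrenomedullin receptor, had 203, 219 and 191 units on OPN, against 114, 99.8 and 115 units on PT (0.81, adjusted p = 0.000520). Ramp3 (0.27, adjusted p = 0.13) and the ligand gene Pth2 (0.18, adjusted p = 0.216) were not called, though their arrays did not overlap. Both were higher at an unadjusted p under 0.05, and Ramp3 was called with dim rows left out (adjusted p = 0.0378). The arrestin gene Arrb1 (0.13) and the scaffold gene Nherf1 (-0.083), whose products bind the receptor, were not called.

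Of 24 measured genes that carry or restrain the receptor's signal, 5 were called higher and 0 lower, at a median of 0.13 (unadjusted, 8 higher and 2 lower). They encode G protein alpha subunits, an adenylyl cyclase and a regulatory subunit of protein kinase A. Prkar1a, the regulatory subunit, had 1231, 1219 and 1193 units on OPN replicates 2, 3 and 4, against 803, 845 and 884 units on PT replicates 1, 2 and 4 (0.52, adjusted p = 0.00237). Adcy3, the cyclase, rose by 0.55 (adjusted p = 0.00454). Both kept their calls when any 1 array was left out. The 2 genes lower at an unadjusted p under 0.05 were the regulatory subunit gene Prkar2a (-0.18, adjusted p = 0.198) and the kinase inhibitor gene Pkia (-0.22, adjusted p = 0.105). Another regulatory subunit gene, Prkar2b (-0.065), was not called. The count called lower was 2 with quantile normalisation. It was 1 with equal array medians, single-symbol genes only or the mean over a gene's rows. Gnas, which encodes the stimulatory subunit that couples the receptor to cAMP, rose by 0.49 (adjusted p = 0.0154), averaging 3749 ± 222 units in OPN-adherent and 2667 ± 271 in PT-adherent cells (SD, n = 3 each). Gnas has a second row, at 220 ± 31.3 units on OPN and 234 ± 1.93 on PT, which did not move with the first (-0.088, adjusted p = 0.744), and the mean of both rows was not called (0.20, adjusted p = 0.141).

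Gnaq (0.34, adjusted p = 0.0290) and Gna11 (0.43, adjusted p = 0.0305) encode subunits that couple to phospholipase C, and Gna11 was named after its values were seen. The count of 5 fell to 2 without OPN replicate 2 or OPN replicate 3, where Gnas (adjusted p = 0.0590 and 0.0782), Gnaq (0.133 and 0.134) and Gna11 (0.0882 and 0.0964) lost their calls. It was 3 without any 1 PT array, where Gnaq and Gna11 lost theirs (adjusted p between 0.0544 and 0.0930). The catalytic subunit genes Prkaca (0.022) and Prkacb (0.20) and the factor gene Creb1 (0.016) were not called.

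Genes that PTH is known to raise or to lower in osteoblast-lineage cells numbered 8 called higher among 24 measured, with 0 lower and a median of 0.14 (unadjusted in limma's test, 11 and 1). Tnfsf11, which encodes RANKL, the osteoblast signal that makes osteoclasts form, had 226, 260 and 239 units on OPN replicates 2, 3 and 4, against 102, 75.5 and 117 units on PT replicates 1, 2 and 4. The groups were 109 units apart, a 2.28-fold difference (log2 1.19, adjusted p = 0.000885). The collagenase gene Mmp13 (3.81, adjusted p = 1.27e-07), the osteocyte matrix gene Dmp1 (2.40, adjusted p = 6.56e-06), the factor gene Fos (1.74, adjusted p = 7.36e-05) and Csf1 (1.05, adjusted p = 0.000114), which encodes M-CSF, had the lowest p. Tnfsf11 and 3 further genes that rose, the prostaglandin synthase gene Ptgs2 (0.84), Bmp6 (0.35) and Nr4a2 (0.32), were named after their values were seen. Nr4a2 lost its call without any 1 array and Bmp6 without any except PT replicate 1. Tnfrsf11b, which encodes the decoy receptor of RANKL, was not called (0.10, adjusted p = 0.584). Sost, which PTH lowers in osteocytes, had a difference of -0.011 (adjusted p = 0.974), with overlapping arrays. Ccl2 was the 1 gene lower at an unadjusted p under 0.05 in limma's test (-0.23, adjusted p = 0.192). Its OPN arrays all lay below its PT arrays. Nr4a1 (-0.073) and Nr4a3 (-0.041) were also below 0 and not called. Above 0 and not called were Cyp27b1 (0.040), Lif (0.047), Fgf23 (0.062), Atf4 (0.070), Igf1 (0.10) and Per1 (0.12). So were Fosl1 (0.13), Areg (0.14), Efnb2 (0.19), Dkk1 (0.36) and Il6 (0.36). Dmp1 is also one of the osteoblast markers, and the part of a change in cell makeup in these differences was not tested.

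**Figure D3:**
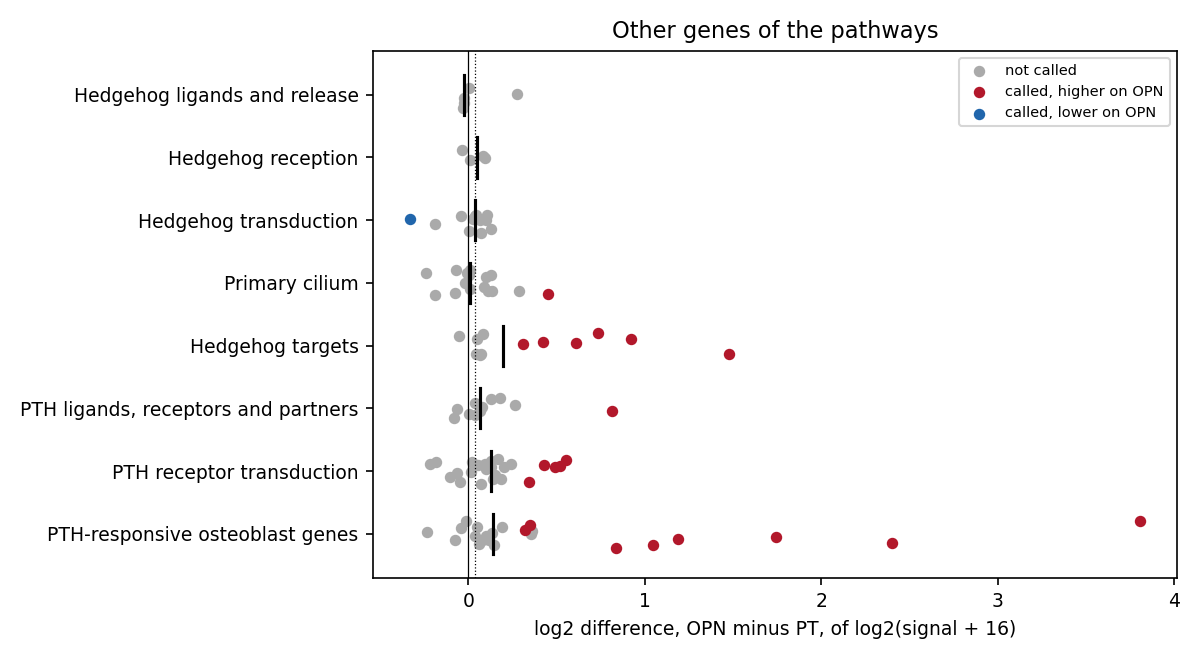
Log2 difference, OPN minus PT, of every other measured pathway gene, with 1 row per list, points jittered vertically, called genes in red (higher on OPN) or blue (lower), black bars at each list's median and a dotted line at the median of all genes (0.039). Called genes lie mostly in the rows of Hedgehog targets, PTH receptor transduction and PTH-responsive genes, and 0 of the 9 genes in the first 2 rows are called.

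The profiles most like those of Pth1r and Smo were found by the root mean square distance between log2 values of the 6 arrays, each gene centred on its own mean. Nearest to Pth1r were the secreted glycoprotein gene Fstl1 (distance 0.087), the protease gene Adamts1 (0.10), the osteocalcin gene Bglap (0.11), the type I collagen gene Col1a2 (0.11) and the membrane metalloproteinase gene Mmp16 (0.12). Bglap, a marker of mature osteoblasts, was 5.51-fold higher on OPN and Fstl1 5.22-fold. The measure weighs the gap between coatings most, so genes of a similar fold come out near, and 6 arrays in 2 groups cannot order them finely. Nearest to Smo were Bbln, Lpar3, Slc29a2, Pmepa1 and Itpr3, at distances of 0.026 to 0.029, with log2 differences between 0.31 and 0.39. Bbln and Pmepa1 were not called, though each was under 5 of the alternatives. Lpar3, which encodes a lysophosphatidic acid receptor, lost its call without any 1 array. The call of the nucleoside transporter gene Slc29a2 was lost without 4 of the arrays, and that of the calcium channel gene Itpr3 without 5.

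**Figure D4:**
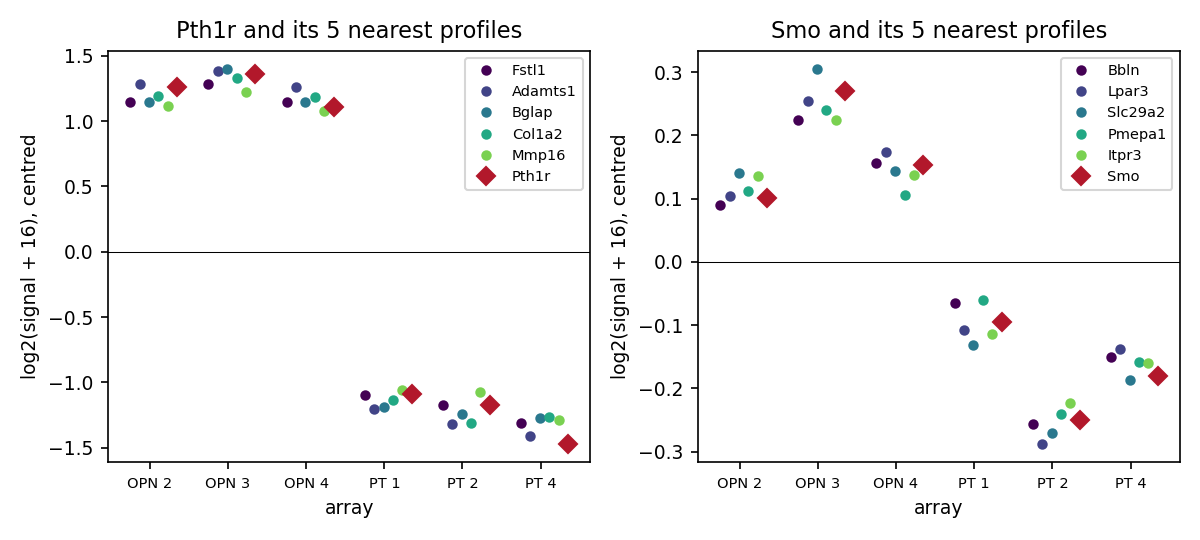
Centred log2(signal + 16) on each of the 6 arrays for Pth1r (left) and Smo (right), as diamonds, and for the 5 genes with the nearest profiles, as circles. For Pth1r all OPN values lie above 1 and all PT values below -1, while for Smo the values stay within 0.3 of the mean.

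Markers of the remaining cell types that the preparations could hold moved on the same arrays. Of 8 measured osteoclast markers 7 rose, with the protease gene Ctsk (4.35) lowest in p, and Calcr (0.18) did not pass. Their sums were 21432 to 24164 units on OPN and 3502 to 3746 on PT. Of 10 measured macrophage markers 7 fell and 0 rose (unadjusted, also 7 and 0), with the mannose receptor gene Mrc1 (-0.79) lowest in p, and their sums were 9208 to 9888 units on OPN and 13064 to 13689 on PT. Of 8 measured smooth muscle and pericyte markers 3 rose and 0 fell (unadjusted, 4 and 0), with Rgs5 (0.86) lowest in p and 2 called without any 1 array, while Acta2, the highest in signal, was not called (0.060). No marker of these lists was at 0 on any array. Which of these cells carried the RNA of Pth1r, Gli3 or Smo was not tested.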

How the data were processed

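RNA of 6 samples was hybridised to Affymetrix Rat Gene 1.0 ST arrays, 1 each. The deposited table holds 1 linear intensity per probe set and array, made with Affymetrix Expression Console and PLIER per the submitters' processing notes. The sources used here do not give versions, background steps or scaling. Groups and replicate numbers come from the titles. The 9 genes and all lists were chosen with earlier results of these data known.

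Of 29215 rows, 15310 carried 1 gene symbol and 323 several, and 13582 carried none. For a gene with several rows the row of highest mean was used. Log2(intensity + 16) was fitted on all rows by limma (3.58.1, R 4.3.3; lmFit, eBayes) on coating alone, unfiltered, with Benjamini-Hochberg adjustment over all rows. Intervals are at 95%. The rule named every measured member, up to 4 genes of smallest p per pathway list, the 5 nearest profiles of the called members with the smallest p and the smallest difference, and per marker list the genes of smallest p and highest mean. All other named genes were chosen after their values were seen. No set test was run. On simulated arrays of this comparison (29215 rows) the fit called 70.1% of 67 rows changed by 0.5 in log2, 98.5% of 67 changed by 1 and 100% of 67 changed by 2, with 12 false calls. The simulated arrays had normal noise at the SD that limma fitted to each row, and no other rows were changed. In the data 1475 rows were called higher and 225 lower, so these rates need not hold there. Numbers 2 and 4 occur under both coatings, but the deviations of same-numbered arrays correlated at -0.082 and 0.068, so the numbers were not taken to pair arrays. Alternatives were the offset (1 or 64), the scaling between arrays, a filter on dim rows, the variance prior, the rows tested, the row chosen for a gene, a replicate block and leaving out each array. Promoters were matched by symbol to RefSeq (GRCr8).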

Additional observations from a re-analysis of the deposited data

How the results depend on the processing

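Pth1r kept its direction and call in all 15 alternatives run on it, with log2 differences between 2.16 and 2.62. Smo kept its direction in 14 and lost its call in 7, and Gli3 kept it in 14 and lost its call in 3. Ihh, Gli1 and Gli2 kept their signs and were called in none of the 15, 14 and 14 alternatives run on them. Leaving out rows with a mean signal under the median of 222 units left 2 of the 6 genes, and 1 was called. With the replicate block 1 was called, since Smo had an adjusted p of 0.240 and Gli3 a difference of 0.51 at 0.0939. The pathway lists then held 10 genes that rose and 0 that fell. In this block PT replicate 1 and OPN replicate 3 had no same-numbered array under the other coating. Its differences therefore rest only on the arrays whose number occurs under both coatings. Whether its lost calls reflect the replicate number or the fewer arrays cannot be told apart. That block left Prkar1a, Adcy3 and Gnas without a call (adjusted p = 0.0990, 0.0924 and 0.227), and 0 of the 24 transduction genes were called. It also left 10 of 13 osteoblast, 9 of 10 stromal, 5 of 10 endothelial and 6 of 8 osteoclast markers called higher. With 1 array left out the members called higher numbered 1 to 2, the pathway genes called higher 12 to 17 and those called lower 0 to 1. The pathway genes called lower, 1 with all rows, numbered 3 with equal array medians, 5 with quantile normalisation, 2 without dim rows, 2 with an intensity trend, 3 with single-symbol genes only and 3 with the mean over a gene's rows. The median of all rows, 0.028, moved to -0.037 with equal medians and -0.030 with quantile normalisation. Rows called lower numbered 225 as reported, 560 and 745 under these scalings, 382 with an offset of 64, 554 without dim rows and 508 with the trend, and 48 with the block, where 618 were called higher. With 1 array left out they numbered 95 to 181, and rows called higher 928 to 1357.

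Signs turned for 7 uncalled genes near 0. Lrp2 was -0.056 with equal medians and -0.041 with quantile normalisation, Acta2 -0.0052 with equal medians and -0.016 with the replicate block, Disp2 0.020 and Gpc3 -0.027 with the block. With 1 array left out, Lrp2 ranged from -0.040 to 0.045, Dhh from -0.084 to 0.075, Shh from -0.12 to 0.056, Gpc5 from -0.088 to 0.017 and Disp2 from -0.062 to 0.0077. The cause of these changes was not tested. Without a measure of background, how far dim signals such as those of Smo, Gli1, Gli2 and Gli3, or of Pth1r on PT, lie above it is not known.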
